A study of Mus musculus with 2 samples.

Results

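Neurotrophins and Gdnf are secreted proteins that keep neurons alive and guide their axons, and the genes described here are 3 of these ligands (Bdnf, Ntf3 and Gdnf) and 5 receptors (Ntrk2, Ntrk3, Ngfr, Ret and Gfra1). Members were chosen by name, and a probe set, the group of array probes summarised as 1 value, was used where the platform annotation pairs it with exactly 1 of these genes. This gave 7 of the 8 genes, with 1 probe set each, among 19938 named genes and 35557 probe sets. Ntf3 was not analysed here.

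Fetal mouse ear was profiled at E18.5, near the end of gestation, on 2 Affymetrix arrays. One array held ear RNA of BALB/c fetal tissue null for both Myf5 and Myod1 (labelled Myf5-/-:MyoD-/-, the double knockout), and the other held wild-type BALB/c ear RNA, so the strain and the age were shared. Myf5 and Myod1 encode the basic helix-loop-helix factors that set the skeletal muscle fate; the series title puts the question as the role of skeletal muscle in the development of the ear. The labels name fetal ear, with no word on the part dissected or on pooling. With a single array for each genotype the values cannot be checked against replicates and no test across samples could be made.

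As background, Bdnf and Ntf3 are made by the sensory epithelia of the inner ear and are needed for the survival and innervation of cochlear and vestibular ganglion neurons. Bdnf acts through the receptor tyrosine kinase TrkB, encoded by Ntrk2, and neurotrophin-3 through TrkC, encoded by Ntrk3. Ngfr encodes p75, a receptor of the tumour necrosis factor family that binds all neurotrophins and their precursors and is abundant in immature Schwann cells. Gdnf binds Gfra1, a co-receptor anchored in the membrane by a lipid, and the complex activates the tyrosine kinase Ret; skeletal muscle is a known source of Gdnf for motor axons, and Ret is used by developing sympathetic, parasympathetic and enteric neurons.

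Neither ligand was measured above the array's own median, whereas all 5 receptors were. Ret and Ngfr were lower in the double knockout, 1.46-fold and 1.44-fold, and Gfra1, Ntrk3 and Ntrk2 were higher by 1.13-fold, 1.14-fold and 1.08-fold. None of these 5 differences reached 1.5-fold. A member was counted only where it lay above a floor, the median of all probe sets on that array, which was 5.70 in the double knockout and 5.65 in the wild type on the log2 scale. In this comparison 12458 genes lay above the floor on at least 1 array, and of these 1.71% were at least 2-fold lower and 0.482% at least 2-fold higher in the double knockout, while 0 of the 5 receptors were either. At 1.5-fold the shares were 3.62% lower and 2.25% higher, again with 0 of the 5 receptors.

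**Figure D1:**
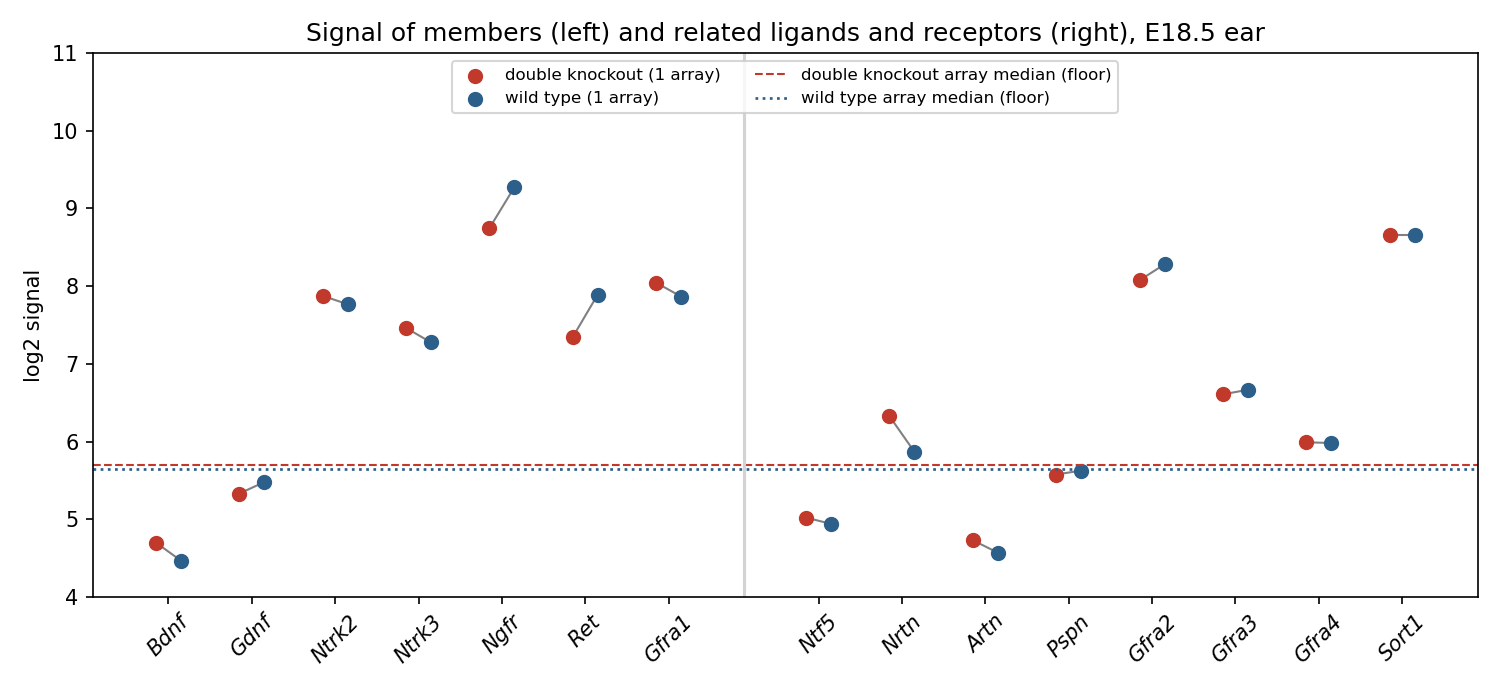
Log2 signal of the 7 members (left of the vertical line) and of 8 related ligands and receptors (right of it) on the double knockout array (red, left point of each pair) and the wild-type array (blue, right point), with each array's median, used as the floor, as a horizontal line. Bdnf and Gdnf lie under both lines, and Ngfr and Ret are the members whose points lie furthest apart, with the double knockout lower.

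Both ligands gave weak signals. Bdnf (probe set 10474399), the ligand of TrkB, read a log2 signal of 4.70 in the double knockout and 4.47 in the wild type, at the 34.4th and the 32.4th percentile of the probe sets on the array. Gdnf (probe set 10422844) read 5.33 in the double knockout and 5.48 in the wild type, at the 44.4th and the 47.7th percentile. Both genes were under the floor on both arrays, so no fold is given, and the array does not show whether either transcript differed. The measured values went opposite ways, by 0.23 for Bdnf and -0.15 for Gdnf (log2 difference, double knockout minus wild type, without the floor). Because no ligand passed the floor, the comparison of ligands with receptors has measured values on the receptor side only.

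Ngfr, which encodes p75, was lower in the double knockout. Its probe set (10390175) read 8.75 in the double knockout and 9.27 in the wild type, a log2 difference of -0.53. For scale, probe sets of the same gene differed from each other with a standard deviation of 0.168 in this log2 difference, over 619 genes with several probe sets above the floor on both arrays. The Ngfr difference was 3.15 times that spread in size, a measure of probe noise that leaves out how fetuses vary. Of all 12458 genes above the floor, 4.40% were lower by at least as much. In RNA of a tissue, fewer cells of a type and less RNA per cell cannot be told apart, here and in every value below.

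The Trk receptors, which bind the same ligands as p75, did not share that direction. Ntrk2 (probe set 10405633) read 7.88 in the double knockout and 7.77 in the wild type, a difference of 0.11 that is smaller than the spread between probe sets of a gene. Ntrk3 (probe set 10564667) read 7.46 in the double knockout and 7.28 in the wild type, a difference of 0.19. That is 1.11 times the spread, and 17.8% of genes were higher by at least as much. Ngfr and Ntrk3 therefore moved apart by a log2 difference of -0.71, a 1.64-fold lower ratio of Ngfr to Ntrk3 in the double knockout, and Ngfr and Ntrk2 by -0.64. Both Trk genes also give transcripts for truncated receptors without a kinase, and 1 probe set per gene does not separate these from the full-length forms.

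The receptors of the Gdnf family also split. Ret, the signalling kinase (probe set 10547227), read 7.34 in the double knockout and 7.89 in the wild type, a log2 difference of -0.55, the largest among the members, and 4.06% of all genes were lower by at least as much. Gfra1, its ligand-binding partner (probe set 10468722), read 8.04 in the double knockout and 7.87 in the wild type, a difference of 0.18. The ratio of Ret to Gfra1 was thus 1.65-fold lower in the double knockout, a log2 difference of -0.73. Gfra1 is made by Schwann cells and mesenchyme as well as by neurons. The median over the 5 receptors, 0.11, describes neither direction, since 3 were above 0 and 2 below, and the median over all 12458 genes was -0.0052.

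**Figure D2:**
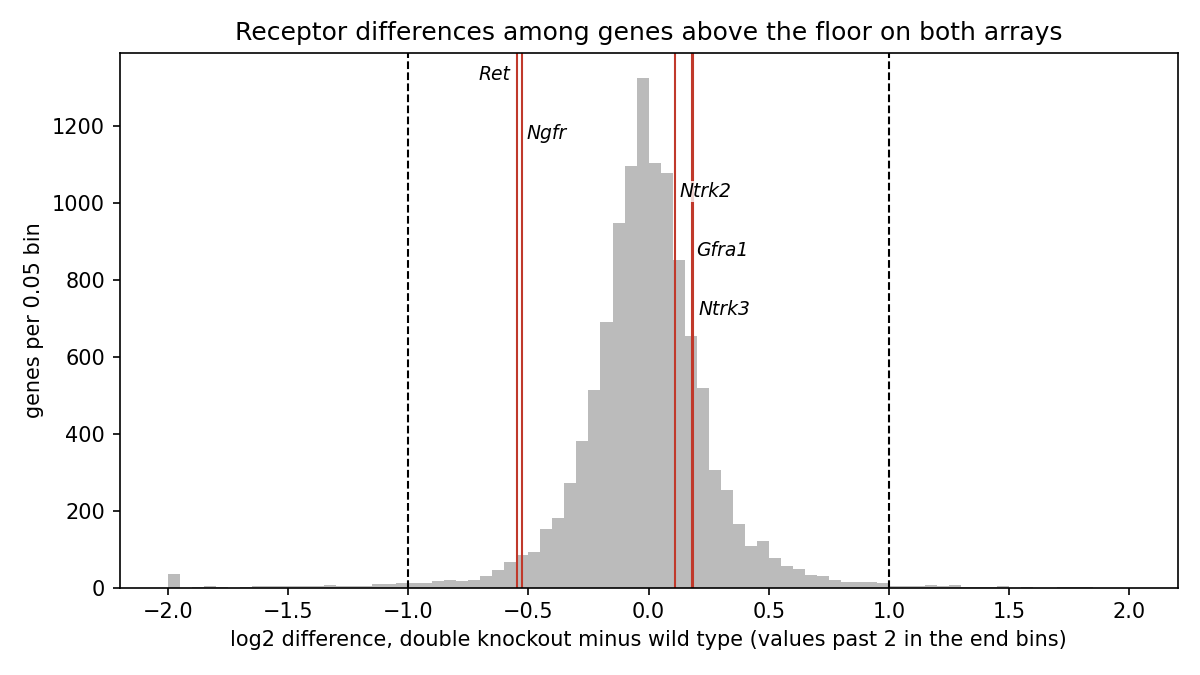
Number of genes per bin of the log2 difference, double knockout minus wild type, for the 11626 genes that passed the floor on each array, with the 5 receptors as red lines and 2-fold as dashed lines. Ret at -0.55 and Ngfr at -0.53 lie in the lower flank, and Ntrk2, Gfra1 and Ntrk3, between 0.11 and 0.19, lie near the centre.

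The promoters of Ngfr and Gfra1 are shown because their measured differences had opposite signs and because Myf5 and MyoD bind the E-box, CANNTG. The Gfra1 difference was close in size to the spread between probe sets of a gene. Each sequence runs from 250 bases before to 50 bases after the annotated start (RefSeq, GRCm38.p6), and capitals mark every CANNTG; the motif reads the same on both strands. 6 of the 8 genes had a promoter in the table used, and Ret and Ntrk3, the members furthest in each direction, had none.
Ngfr, chr11:95587649-95587948, minus strand: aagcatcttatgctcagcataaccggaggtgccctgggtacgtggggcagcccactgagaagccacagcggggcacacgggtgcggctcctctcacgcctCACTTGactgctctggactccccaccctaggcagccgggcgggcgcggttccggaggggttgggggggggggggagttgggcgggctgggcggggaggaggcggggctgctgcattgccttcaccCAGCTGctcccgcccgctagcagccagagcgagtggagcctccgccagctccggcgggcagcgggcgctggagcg
Gfra1, chr19:58455349-58455648, minus strand: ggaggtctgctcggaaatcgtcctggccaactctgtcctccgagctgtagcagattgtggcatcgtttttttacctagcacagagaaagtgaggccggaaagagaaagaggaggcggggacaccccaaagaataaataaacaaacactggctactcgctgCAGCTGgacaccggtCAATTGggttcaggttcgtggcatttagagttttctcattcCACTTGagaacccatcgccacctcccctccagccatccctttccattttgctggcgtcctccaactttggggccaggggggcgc
The Ngfr promoter holds 2 E-boxes, beginning 150 and 25 bases before the start site, and the Gfra1 promoter holds 3, beginning 90, 75 and 34 bases before it. Of 32851 mouse promoters of this length, 72.3% hold at least 1 CANNTG, 39.6% at least as many as Ngfr and 17.6% at least as many as Gfra1. The single Ntrk2 promoter in the table holds 1, and the 7 promoters of Bdnf hold from 0 to 2. These counts describe letters in the window and are not evidence of binding.

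Over the 2 arrays, the genes closest to a member in the plane of both log2 values were taken from the pathway and marker lists. Nearest to Ret were Plat at a distance of 0.149, Tyrobp at 0.183 and Tek at 0.195 log2 units, with differences of -0.34, -0.33 and -0.36. Nearest to Ntrk3, the member furthest in the higher direction, were Twist2 at 0.0467, Traf6 at 0.0790 and Kit at 0.0917 log2 units. A likeness over 2 arrays says only that the values lie close together.

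The other ligands of these families were mostly under the floor as well. Nrtn, which encodes neurturin, the Gfra2 ligand, was the exception: it read 6.33 in the double knockout and 5.87 in the wild type, a difference of 0.46. Ntf5, the gene of neurotrophin-4, read 5.02 in the double knockout and 4.94 in the wild type. Artn, the artemin gene, read 4.73 in the double knockout and 4.57 in the wild type, and Pspn, the persephin gene, 5.58 in the double knockout and 5.63 in the wild type. Those 3 were under the floor on both arrays, so 1 of the 4 other ligands analysed was measured, and 0 were 2-fold apart.

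The other receptors stayed close to equal. Of 9 analysed, 8 lay above the floor and 0 reached 1.5-fold, with 2 above 0, 5 below 0 and a median of -0.09. Gfra2, the neurturin co-receptor, read 8.07 in the double knockout and 8.28 in the wild type, a difference of -0.21. Gfra3, the artemin co-receptor, differed by -0.06, and Gfra4, the persephin co-receptor, by 0.01. Sort1, which encodes sortilin, the partner of p75 for neurotrophin precursors, read 8.66 on both arrays. Its relatives Sorcs1, Sorcs2 and Sorcs3 differed by -0.15, -0.27 and 0.11. Ncam1, an adhesion molecule that can also bind Gdnf, differed by -0.12, and Gfral, at 3.33 in the double knockout and 3.03 in the wild type, was under the floor.

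Genes of proteins that work with p75 were mostly above 0. Of 8 genes, 7 were above 0 and 1 below, with a median of 0.11. Maged1, which binds the p75 intracellular domain, differed by 0.06, and Bex3, another p75 interactor, by 0.13. Kidins220, a scaffold of Trk and p75 signalling, differed by 0.30. Rtn4r, the Nogo receptor that pairs with p75, read 6.21 in the double knockout and 5.61, under the floor, in the wild type, at least 1.48-fold higher and the furthest of this list. Irak1 differed by -0.06.

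The adaptors that carry signals from Trk receptors and Ret had a median of -0.01 over 21 genes, with 8 above 0 and 12 below. One adaptor passed 1.5-fold: Shc3, a neuronal Shc protein, read 7.97 in the double knockout and 7.12 in the wild type, a difference of 0.85, short of 2-fold. Shc2 went the other way, by -0.33, as did Grb10, by -0.33, and Ndn, whose product necdin binds Trk and p75 receptors, by -0.20. Gab1 differed by 0.11.

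Enzymes and inhibitors of precursor processing, which decide how much proneurotrophin is cleaved, had a median of -0.12 over 8 genes, with 3 above 0 and 5 below and 0 past 1.5-fold after the floor. Pcsk6, a furin-like convertase, read 7.97 in the double knockout and 8.55 in the wild type, a difference of -0.58. Furin differed by -0.19, Mmp9 by 0.15 and Serpini1, the gene of neuroserpin, which inhibits tissue plasminogen activator, by 0.25. With no floor the median of this list was 0.06, so its side of 0 depends on the floor.

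Genes that respond to receptor tyrosine kinase signalling in general, with no tie to these ligands alone, had a median of -0.29 over 12 genes, with 8 below 0, 4 above, 0 past 2-fold and 1, Npy, past 1.5-fold. The median was -0.15 under a floor at the 75th percentile and -0.14 with the pseudocount. Spry4, a feedback inhibitor of the MAP kinase pathway, read 7.22 in the double knockout and 7.73 in the wild type, a difference of -0.51. Dusp6, the ERK phosphatase, differed by -0.36. Npy, the gene of a neuropeptide of sympathetic and other neurons, was the furthest in the other direction, at 8.15 in the double knockout and 7.55 in the wild type, a difference of 0.60. Gap43, a growth-cone protein, differed by 0.17 and Etv1 by 0.05.

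**Figure D3:**
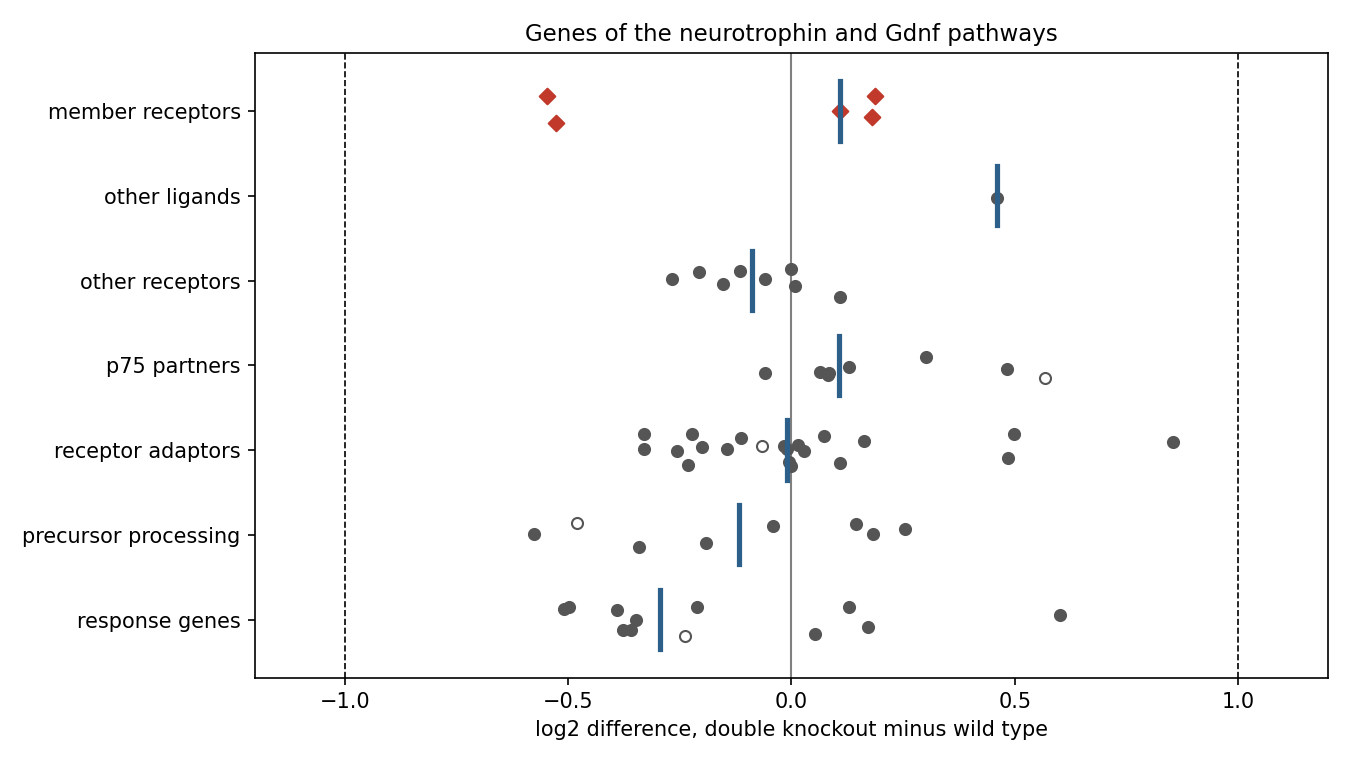
Log2 difference, double knockout minus wild type, of each gene above the floor in the pathway lists, with members as red diamonds, genes with only a bound as open circles, the list median as a blue bar and 2-fold as dashed lines. No gene reaches a dashed line after the floor, and the medians run from -0.29 for the response genes to 0.46 for the single ligand measured.

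Markers of several cell types differed between the arrays, and their part in the receptor values was not tested. Noradrenergic and autonomic neuron genes, a class that uses Ret, were lower: of 11 genes, 10 were below 0 and 4 were at least 2-fold lower, with a median of -0.78. Dbh, the enzyme that makes noradrenaline, read 6.67 in the double knockout and 8.23 in the wild type, and Th, the first enzyme of that pathway, 6.91 and 8.16 in the same order. Chrna3, a nicotinic receptor subunit of autonomic ganglia, differed by -0.85, Gata2 by -0.03 and Insm1 by 0.73. The median was -0.48 with the pseudocount in place of the floor. The summed linear signal of the 11 genes was 1118 in the double knockout and 1837 in the wild type, 1.64-fold lower. Low values were raised to the floor here and in the sums below. Ret was 1.46-fold lower, and Ngfr, which is not in this list, 1.44-fold lower.

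Schwann cell genes, the class that shares Ngfr, had a median of -0.22 without Ngfr, over 14 genes of which 10 were below 0 and 0 past 1.5-fold after the floor. Ngfr, at -0.53, was the lowest of the 15 genes with it after the floor. That rank depends on the floor. Cdh19, under the floor in the double knockout, has only a bound, at least 1.21-fold lower, and its difference without the floor was -0.65. Pmp22, a myelin protein, differed by -0.24, and Fabp7, made by immature Schwann cells and by brain glia, by 0.51. The summed signal of this list was 8598 in the double knockout and 8211 in the wild type, so the sum, in which Fabp7 weighs most, and the median have opposite signs.

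Sensory ganglion neuron genes, the cells in which Ntrk2 and Ntrk3 act, had a median of -0.04 over 21 genes, with 14 below 0 and 6 above. That median hides a spread. Isl1, Prph, Scn9a and Scn10a differed by -0.44, -0.52, -0.48 and -0.55, a size near that of Ret and Ngfr, and Elavl3 by 0.72. These genes were picked after their values were seen. Others of the list lay nearer 0, with Nefm, Nefh, Runx3 and Runx1 at -0.02, -0.04, 0.004 and -0.15. The general neuronal genes Stmn2 and Tubb3 differed by 0.21 and 0.47, and Nefl by -0.17. Neurod1 was at 6.99 in the double knockout and 5.82 in the wild type, and Pvalb, a calcium buffer of proprioceptive neurons and of fast muscle, at 6.33 and 7.84 in the same order. The list's summed signal was 6817 in the double knockout and 6670 in the wild type. Cortical neuron genes, by contrast, were all higher: 15 of 15 were above 0 and 5 at least 2-fold higher, with a median of 0.64 and a summed signal of 2313 in the double knockout and 1295 in the wild type. Ntrk2 and Ntrk3 are also expressed in the brain, where the truncated form of Ntrk2 marks astrocytes; genes of astrocytes and oligodendrocytes had a median of 0.08 over 12 genes, with 8 above 0 and 4 below. Slc1a3 and Aldh1l1, of astrocytes, differed by 0.40 and 0.55. Cnp and Cspg4, of the oligodendrocyte lineage but also of Schwann cells and pericytes, differed by -0.35 and -0.40. Other genes of both classes went the other way. Olig1 and Olig2, of the oligodendrocyte lineage, were at least 1.06-fold and 1.41-fold higher in the double knockout, and Aqp4, of astrocytes, was at least 1.23-fold lower. Pdgfra, also in this list, differed by 0.01. The median turned to -0.17 under a floor at the 75th percentile and -0.0066 after loess, so its sign is not settled, and the summed signal was 2601 in the double knockout and 2558 in the wild type. Gfap was under the floor on both arrays.

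The inner ear epithelium is a source of Bdnf in the ear. Supporting cell and otic epithelial genes had a median of 0.01 over 18 genes, with Oc90, an otoconial protein, at 11.26 in the double knockout and 11.28 in the wild type, and Tecta, of the tectorial membrane, at 8.76 and 8.74 in the same order. Hes5, a Notch target of supporting cells and of neural progenitors, was the furthest in this list, at 6.82 in the double knockout and 6.13 in the wild type, a difference of 0.69. Of 16 hair cell genes, 8 passed the floor, with a median of 0.03; Atoh1 read 6.17 on both arrays, and Chrna9, a nicotinic receptor subunit, read 4.84, under the floor, in the double knockout and 6.81 in the wild type, at least 2.16-fold lower. Skeletal muscle genes were far lower in the double knockout: 20 of 21 were at least 2-fold lower, and 15 of the 22 with a probe set were under the floor there, against 1 in the wild type. Of the targeted genes, Myod1 read 6.38 in the double knockout and 6.95 in the wild type, and Myf5 5.25, under the floor, and 5.94 in the same order; the sources used here do not say whether either probe set lies in the deleted part. Salivary gland genes, by contrast, were higher in the double knockout: 12 of 12 were above 0, 9 of the 13 with a probe set were under the floor in the wild type, and the summed signal, with those genes at the floor, was at least 12.5-fold higher in the double knockout.

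**Figure D4:**
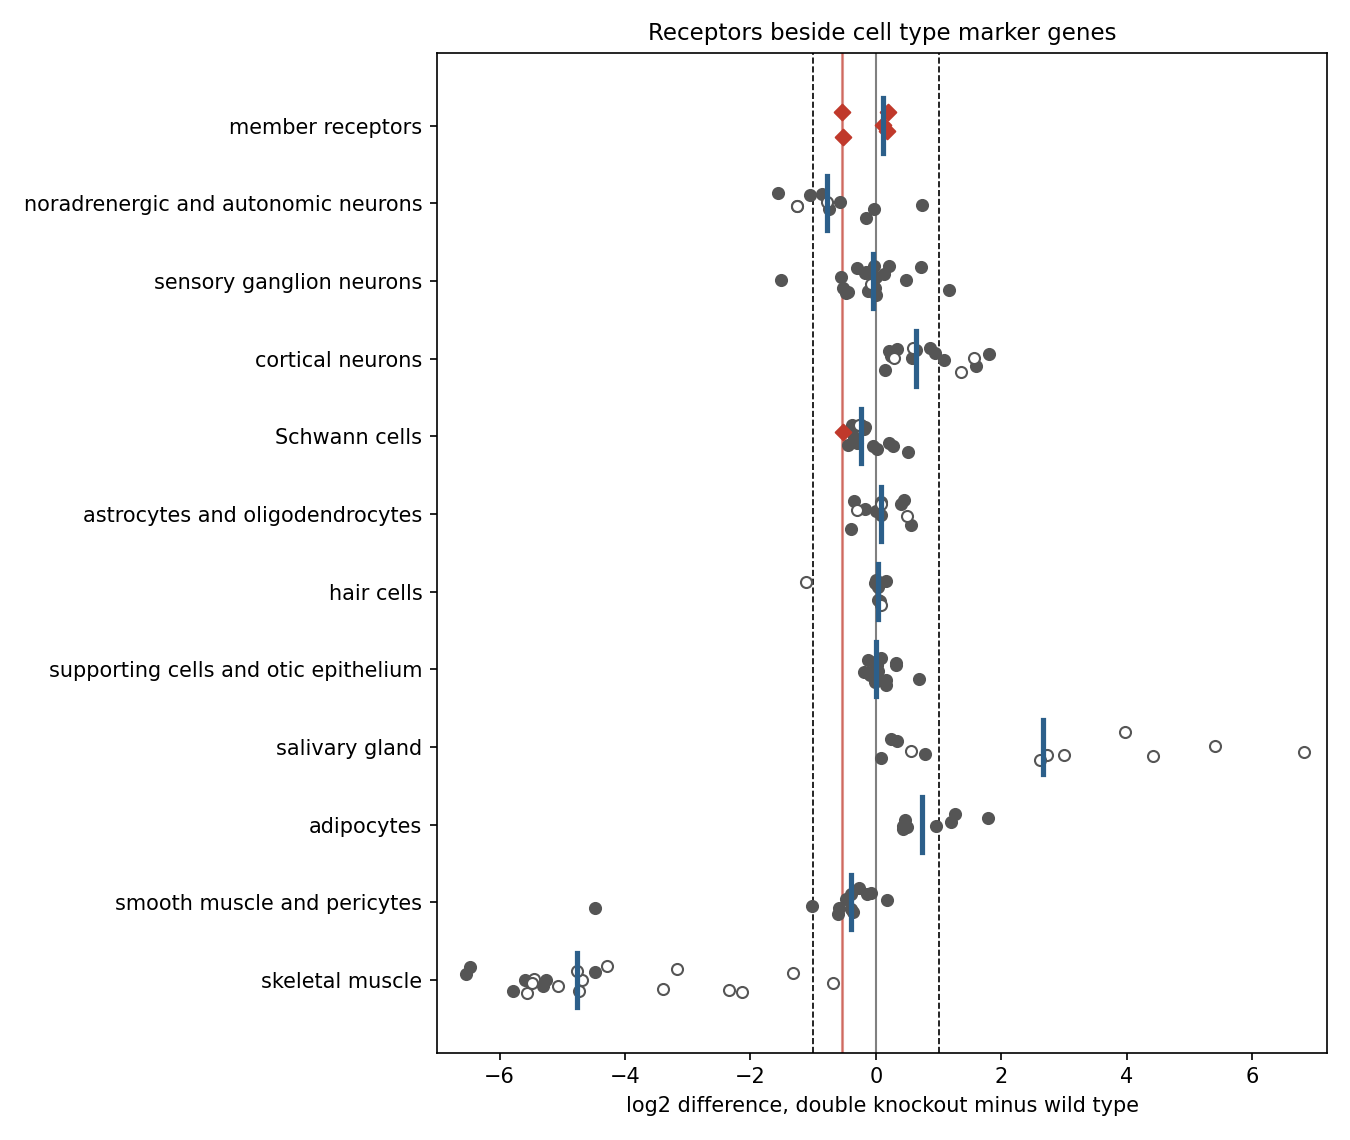
Log2 difference, double knockout minus wild type, of each gene above the floor in the marker lists, drawn as in the plot of pathway genes, with Ret and Ngfr also as vertical red lines. The receptors span a narrow range beside the skeletal muscle genes (median -4.76) and the salivary gland genes (median 2.67). All 5 receptors lie within the range of the noradrenergic genes, -1.56 to 0.73, and within that of the sensory ganglion genes, -1.51 to 1.17. Of the noradrenergic genes only Insm1 is above 0, so Ntrk2, Ntrk3 and Gfra1 lie above the other 10.

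The directions of the 5 receptors were the same under the 4 other scalings, the other floors, no floor, the pseudocount and the per-gene median. Not all of these settings are checks. Each receptor has a single probe set and lay above the floor on both arrays. The lower of the other floors, no floor and the per-gene median therefore could not alter any receptor value. The higher floor altered only Ret and Ntrk3. Ret ranged from -0.55 to -0.42 and Ngfr from -0.53 to -0.47 over 10 settings, and Gfra1 from 0.16 to 0.22, Ntrk3 from 0.09 to 0.22 and Ntrk2 from 0.10 to 0.15.

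**Figure D5:**
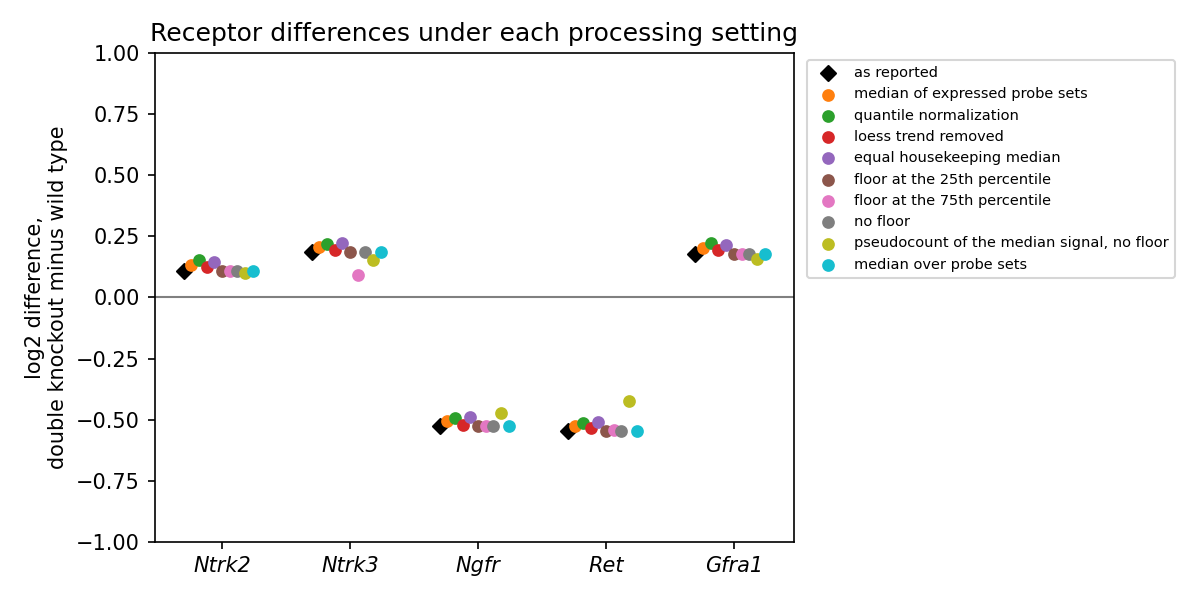
Log2 difference, double knockout minus wild type, of the 5 receptors under the reported setting (black diamonds) and 9 others (coloured circles). Ret and Ngfr stay below 0 and the other 3 receptors above 0 in all 10 settings. The lower of the other floors, no floor and the per-gene median repeat the reported values by construction.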

How the data were processed

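RNA of fetal ear at E18.5 was labelled from 6 µg of total RNA, per the labels' protocols. The deposited values are log2 signals, 1 per probe set and array. The base was read from their range (0.75 to 13.26 in the double knockout, 0.81 to 13.27 in the wild type) and is not stated. MAS5 is named, per the submitters' processing notes; no version, background correction or normalization is stated in those sources. The platform is a gene array without the mismatch probes that MAS5 was built on, so how the signals were computed is not settled. Values were used on the deposited scale.

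Gene names came from the platform annotation, updated through Entrez identifiers. It paired 21789 probe sets with 1 gene, 1621 with several and 12147 with none; the probe set of highest mean linear signal stood for a gene. Values under the 50th percentile of an array were raised to it, and genes under it on both arrays (all but 12458) were left out. The difference is double knockout minus wild type. A single array per group allows no p-value and limits the precision of every value.

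The members and the 24 gene lists (335 genes, 309 with a probe set) were chosen with earlier results of these data known. The rule for named genes took all members, every gene of the lists of other ligands and other receptors, and from each remaining list the 3 genes of highest signal and the furthest in each direction; for lists far from the members only some of these are printed. Gfap, both targeted genes, Isl1, Prph, Scn9a, Scn10a and Elavl3 were named outside it, after their values were seen. So were Olig1, Olig2, Aqp4, Cdh19, Nefm, Nefh, Runx1 and Runx3. Alternatives were 4 scalings, a floor at the 25th or 75th percentile or none, a pseudocount equal to the array's median signal, a per-gene median of probe sets, and count thresholds of 1.5-fold or 3-fold. The calculation was tested on simulated data. Python 3.11.15, pandas 2.3.3 and statsmodels 0.14.6 (loess, span 0.3) were used.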

Additional observations from a re-analysis of the deposited data

How the results depend on the processing

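No call on the members changed: 0 members passed the threshold in either direction under any of the 12 settings, 1.5-fold and 3-fold among them, and the receptor median ranged from 0.09 to 0.15. For the receptors, the lower of the other floors, no floor and the per-gene median could not change a value. The 3-fold threshold could not be passed where a lower one was not. With the floor at the 75th percentile, Ret in the double knockout and Ntrk3 in the wild type lay under it, so -0.54 and 0.09 are bounds there. Bdnf and Gdnf passed the floor where it was set at the 25th percentile, with differences of 0.23 and -0.15. The scalings moved the median of all genes by less than 0.1. Of the list medians, those of astrocyte and oligodendrocyte genes and of precursor processing changed sign, as did those of endothelial, hair cell and receptor adaptor genes, which lay near 0 throughout. Under a floor at the 75th percentile, precursor processing, at -0.27, lay below the response genes. The pseudocount brought the medians of noradrenergic, cortical neuron and adipocyte genes to -0.48, 0.44 and 0.46. Skeletal muscle genes had a median of -3.43 under a floor at the 75th percentile and -5.37 with none. For salivary gland genes these medians were 1.76 and 2.98. The median of the other ligands, 0.46 as reported, was 0.12 with no floor and 0.08 with the pseudocount. The counts over all genes depend on the setting. Raising the floor to the 75th percentile left 111 lower and 21 higher, against 213 and 60 as reported; without a floor 92 were higher; with the pseudocount 34 were higher. At 1.5-fold 451 were lower and 280 higher, and at 3-fold 120 lower and 16 higher, which follows from the threshold. By construction a floor clips low values and a pseudocount draws differences toward 0. How far this accounts for the counts was not tested. No paired analysis was possible because each genotype has 1 array. Signals near the floor limit what can be said of the ligands.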

Other observations

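Other factors that support neurons and their receptors, outside the neurotrophin and Gdnf families, had a median of -0.07 over 14 genes, with 9 below 0, 5 above and 0 past 1.5-fold. The heparin-binding growth factors Mdk and Ptn differed by 0.13 and 0.10 (log2, double knockout minus wild type), and Il6st, the shared receptor subunit of the ciliary neurotrophic factor family, by -0.11. Clcf1, a ligand of that family, read 6.51 in the double knockout and 6.07 in the wild type, a difference of 0.44. Met, the receptor of hepatocyte growth factor, read 6.60 in the double knockout and 6.85 in the wild type, a difference of -0.26.

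Among the remaining marker lists, smooth muscle and pericyte genes had a median of -0.40 over 12 genes, with 11 below 0; Acta2 read 9.81 in the double knockout and 10.82 in the wild type, Des differed by -4.48 and Pdgfrb by 0.18. Macrophage genes had a median of -0.32, with 9 of 9 below 0. Adipocyte genes were all above 0, 8 of 8, with a median of 0.73. Fibroblast and mesenchyme genes had a median of -0.10 over 11 genes, endothelial genes of -0.01 over 10 and housekeeping genes of 0.02 over 24.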
